A study of Mus musculus with 8 samples.

Results

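Nuclei that carried several transcripts of motile cilium genes were picked out of single-nucleus RNA profiles of mouse forebrain. A nucleus was taken if at least 3 of 10 cilium genes (Foxj1, Dnah12, Dnah6, Dnah11, Cfap44, Cfap54, Spag16, Rsph1, Tmem212 and Ccdc153) were detected with at least 5 UMIs in all. UMIs are unique molecular identifiers, which count captured RNA molecules. The nucleus also had to hold at most 1 UMI of the neuronal genes Rbfox3, Snap25 and Syt1 together, and 0 UMIs of Mog, Cx3cr1 and Flt1, which mark oligodendrocytes, microglia and endothelium. Of 53390 barcodes, 48468 were kept (500 UMIs or more, 300 genes or more, mitochondrial UMIs not above 5%), and 177 of these met the rule. The nuclei were thus chosen by their measured UMIs of these genes, so the levels of the 10 cilium genes, and all differences from nuclei outside the selection, are descriptions without a test. The working name of the selection was ependymal nuclei. A large share of the nuclei held choroid plexus markers and no UMI of the ependymal markers Tmem212 and Dnah12, as described below. The ependymal markers Foxj1, Cfap54 and Spag16 were found among those nuclei as well. The selected nuclei are therefore called cilium-gene nuclei here.

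The tissue was a small block of forebrain next to the lesion site from male Swiss Webster mice aged 10 weeks, frozen and sent for droplet sequencing of nuclei. Swiss Webster is an outbred stock, and no transgene or allele is given for any group. The mice had control surgery, BCAS surgery, TBI (traumatic brain injury) surgery or both, with 2 libraries per group, and the study's title links the surgeries to cerebral hypoperfusion and brain injury. The labels do not spell out BCAS, do not give the time between surgery and collection, and do not say whether a library pooled animals. Their replicates are called biological, and p-values measure the spread between these 8 libraries.

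Ependymal cells line the brain ventricles, and their tufts of motile cilia move cerebrospinal fluid. A motile cilium is built on an axoneme, in which outer and inner dynein arms pull on neighbouring microtubule doublets, radial spokes and a central pair regulate the beat, and nexin links hold the doublets together. The epithelium of the choroid plexus, which secretes cerebrospinal fluid, also forms tufts of cilia with axonemal genes, and it makes transthyretin (Ttr). Another ciliated epithelium of the ventricular wall, the subcommissural organ, is known for secreting SCO-spondin, the product of Sspo.

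Replicates 1 and 2 held 12 and 31 cilium-gene nuclei in control, 16 and 34 in BCAS, 22 and 28 in TBI, and 20 and 14 in BCAS+TBI. Library totals ran from 28118725 to 56135192 UMIs, and the libraries fell into a set of lower totals (control 1, BCAS 1, TBI 1 and BCAS+TBI 2) and a set of higher totals (the other 4). Median UMIs per cilium-gene nucleus were 1687 to 2236 in the lower set and 2271 to 2525.5 in the higher set. Libraries shared 4 to 15 kept barcodes in each of 28 pairs, no pair shared a cilium-gene nucleus, and 2 such nuclei had a barcode that another library also used. The limits removed many candidates: 1594 nuclei met the cilium part of the rule, 1279 of them failed the neuronal limit and 138 more failed on Mog, Cx3cr1 or Flt1 alone. The nuclei lost included 324 that met the choroid plexus criterion given below and 50 with at least 2 UMIs of Sspo. Of all 586 kept nuclei that met that criterion, 102 were within the limits. Htr2c, a gene of the criterion, was 252 CPM in kept nuclei outside the selection, and the type of the lost nuclei was not tested. Just inside and outside the thresholds stood 20 nuclei with 5 cilium UMIs and 17 with 4, 23 nuclei with 3 cilium genes and 6 with 2, and 69 nuclei with 1 neuronal UMI and 33 with 2.

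The cilium-gene nuclei were of at least 3 kinds. In 74 of 177 (41.8%), at least 3 of the choroid plexus markers Folr1, Kl, Otx2, Clic6, Prlr and Htr2c were detected with at least 5 UMIs, and these are called choroid-marker nuclei. Another 42 (23.7%) held 2 or more UMIs of Sspo and are called Sspo nuclei, a class set after the values were seen. The remaining 61 (34.5%) met neither criterion. Median UMIs per nucleus were 2932, 2103.5 and 1652 in the choroid-marker, Sspo and remaining nuclei, and the class differences below are descriptions without a test, since the same nuclei defined the classes.

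**Figure D1:**
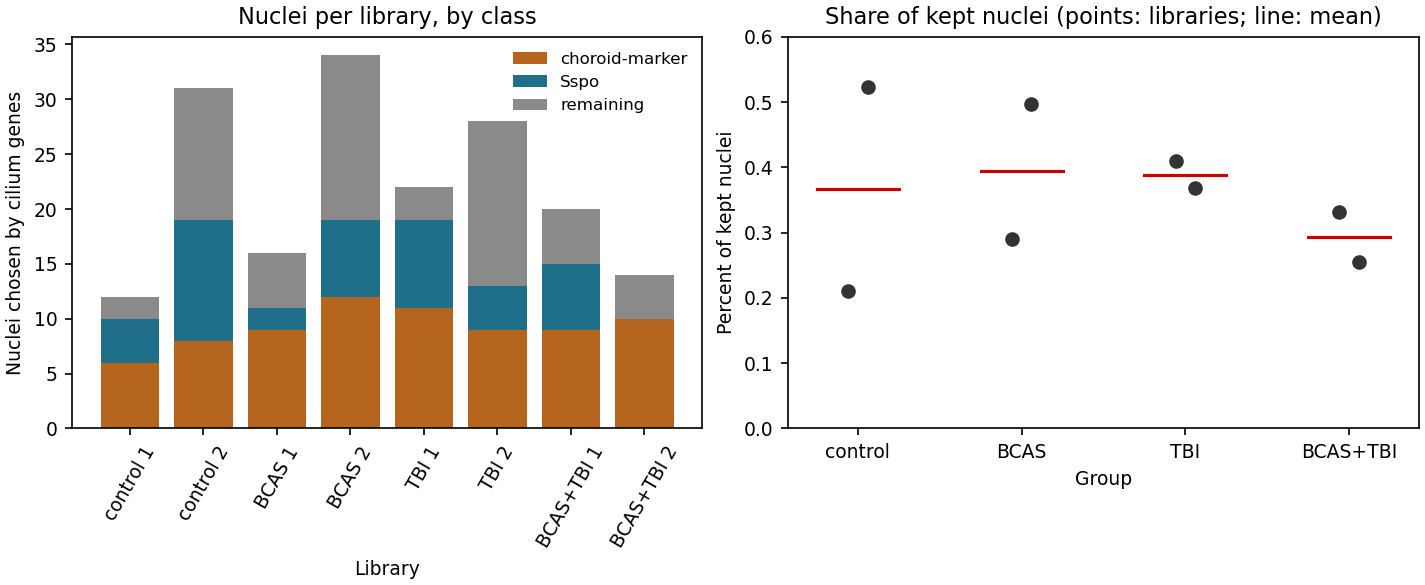
The left panel stacks the number of cilium-gene nuclei in each library by class, and the right panel plots their percent of kept nuclei, with a point per library and a line at the mean of each group. BCAS+TBI 2 holds no Sspo nucleus, and each group's share lies within the range of the control libraries.

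Choroid-marker nuclei had no UMI of either of 2 usual ependymal markers. Tmem212, a membrane protein gene known as an ependymal marker, had 0 UMIs in the 74 choroid-marker nuclei, 9 in the 42 Sspo nuclei and 89 in the 61 remaining nuclei. Dnah12, an inner arm dynein heavy chain, had 0, 27 and 61 UMIs in these classes. Both are rule genes, so these counts describe the selection. The count of 0 for each allows, for counting error alone over the 74 pooled nuclei, a share of up to 4.05% with a UMI, and the remaining nuclei with a UMI were 55.7% for Tmem212 and 50.8% for Dnah12. In 2786 astrocyte comparators, which had a median of 1916 UMIs and at most 1 cilium UMI by definition, those shares were 1.04% for Tmem212 and 0.0718% for Dnah12. With each nucleus thinned to 1000 UMIs, Tmem212 was found in 36% and Dnah12 in 38% of the remaining nuclei, in 7.14% and 35.7% of the Sspo nuclei, and in 0% of the choroid-marker nuclei. Per library, over all classes, Tmem212 was 0 and 181 CPM in control, 158 and 338 in BCAS, 58.9 and 437 in TBI, and 243 and 110 in BCAS+TBI. Dnah12 was 182 and 323 CPM in control, 31.7 and 185 in BCAS, 98.1 and 286 in TBI, and 281 and 73.6 in BCAS+TBI. For both genes the spread within a group was as wide as that between groups. Counting Ccdc153 as well, 65 of the 103 nuclei outside the choroid-marker class and 1 of the 74 inside it held a UMI of these 3 genes.

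Spag16, a central pair protein and the rule gene with the most UMIs, was found in every class. Its level in UMIs per 1000000 UMIs (CPM) was 1755 (95% Poisson interval 1582 to 1942) in choroid-marker nuclei, 841 (660 to 1058) in Sspo nuclei and 1503 (1291 to 1739) in the remaining nuclei, against 5.74 (3.95 to 8.06) in the astrocyte comparators. These intervals cover counting error only. Per library Spag16 was 1226 and 1032 CPM in control, 1394 and 1569 in BCAS, 1295 and 1733 in TBI, and 2116 and 1472 in BCAS+TBI. The control libraries were the 2 lowest, and the other groups overlapped. Spag16 helped to choose the nuclei and its level differed by class, so nothing is read from this order. The part of the class mix in it was not tested. Foxj1, the transcription factor that switches on motile cilium genes, was sparse throughout, with 10, 3 and 9 UMIs in the 3 classes and 11.9% of all cilium-gene nuclei positive. Cfap44, Cfap54, Dnah6 and Dnah11, which supply axonemal proteins and dynein heavy chains, were each found in 59% to 92.9% of every class.

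**Figure D2:**
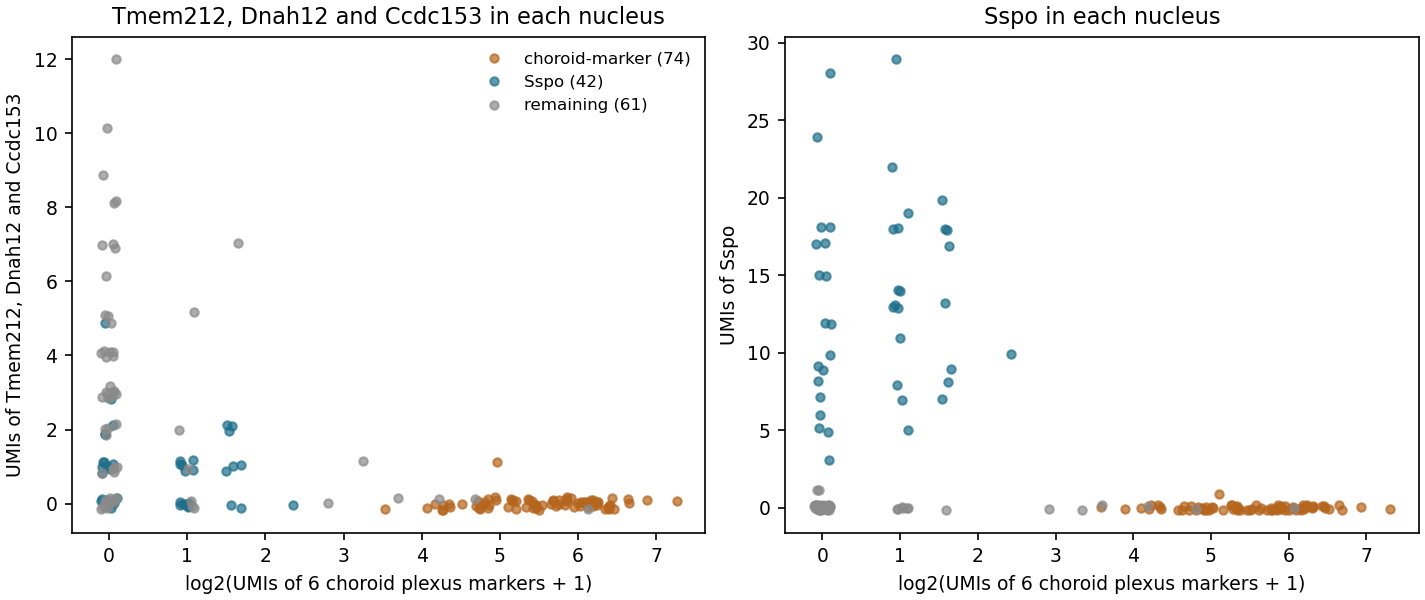
Each point is a cilium-gene nucleus, placed by log2 of its UMIs of 6 choroid plexus markers plus 1, against its UMIs of Tmem212, Dnah12 and Ccdc153 (left) or of Sspo (right), with a small random shift so that points do not hide each other. The 74 choroid-marker nuclei lie to the right at 0 or 1 UMI on both vertical axes.

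The 25 genes with the highest ratio of cilium-gene nuclei to other kept nuclei, outside the rule, showed the mixture again: 13 were in the cilium lists (Gmnc in that of multiciliation), 3 were choroid plexus markers and 9 were in neither. Sspo led them, at 1343 CPM against 4.13 CPM in other kept nuclei, followed by Otx2os1 and Ttr. Of these 25, 10 had a log2 ratio over 1 for choroid-marker nuclei over the rest, 10 were under -1, and 5 were between. Rbm47, an RNA-binding protein gene, and Tmem72 were on the choroid side, at 1251 and 1050.4 CPM in choroid-marker nuclei against 96.8 and 82.3 in the rest. Prdm16, a chromatin regulator, was 1485 CPM in choroid-marker nuclei, 317 in the remaining nuclei and at 0 UMIs in Sspo nuclei.

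The genes that led in choroid-marker nuclei included members of their own criterion. Htr2c, a serotonin receptor that is abundant in choroid plexus epithelium (chromosome X, 146962513 to 147197277, plus strand), had 3078 UMIs there, 14369 CPM, and was found in all 74. It stood at 23.1 CPM in Sspo nuclei and 12.7 CPM in the astrocyte comparators. Per library, Htr2c in all cilium-gene nuclei was 9582 and 4735 CPM in control, 9885 and 6135 in BCAS, 11658 and 5879 in TBI, and 9081 and 10342 in BCAS+TBI. The 3 lowest of these values came from control 2, BCAS 2 and TBI 2, where choroid-marker nuclei made up 25.8% to 35.3% of the cilium-gene nuclei. Within choroid-marker nuclei the level ran from 11920 to 17007 CPM over the 8 libraries. Htr2c is a gene of the criterion, so a higher level there than over all classes follows from that choice.

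Ttr, the thyroxine carrier that choroid plexus exports, was 5537 CPM in choroid-marker nuclei, 92.2 in Sspo nuclei and 952 in the remaining nuclei, where 6 of the 61 nuclei held 106 of the 114 UMIs. A UMI of Ttr was also found in 10.7% of astrocyte comparators, a type that should lack it, so the 14.3% in Sspo nuclei is read as near background. Among the other choroid-side genes, which apart from Kl, Prlr and Enpp2 were picked after their values were seen, Enpp2 (autotaxin) was 9603 CPM in choroid-marker nuclei and 789 in the rest, and Kl (Klotho), Igsf5 and Wdr72 had UMIs in choroid-marker nuclei and none in the others. The bicarbonate transporter gene Slc4a5 was 411 CPM in choroid-marker nuclei against 14.5 in the rest. The cation channel gene Trpv4 was 289 against 9.68 CPM. Prlr, the prolactin receptor, was 990 against 33.9 CPM. These 6 of the 61 remaining nuclei held at least 4 UMIs each of Ttr and Htr2c without meeting the choroid criterion, and they held 122 of the 123 UMIs of Htr2c in that class, so the border of that class was not sharp. Another 28 kept nuclei met the choroid criterion and the limits but had too few cilium UMIs for the rule. Their low counts of rule genes follow from that choice. Of genes outside the rule, they had 0 UMIs of Dnah5, with Htr2c at 10828 CPM, Gmnc at 825 CPM and Lrriq1, a ciliary gene outside the rule, at 1526 CPM.

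Sspo nuclei were defined by the count of a single transcript, that of Sspo, and other genes that marked them are given below. Sspo (chromosome 6, 48448229 to 48501250, plus strand) was at 0 UMIs in 132 of the 177 nuclei, at 1 in 3 and at 2 to 4 in 1, and the median of the 42 Sspo nuclei was 13 with a highest count of 29. Per library, Sspo in all cilium-gene nuclei was 1726 and 2516 CPM in control, 412 and 1210 in BCAS, 1609 and 844 in TBI, and 1311 and 0 in BCAS+TBI. Within Sspo nuclei the level was 4762 to 7276 CPM in the 7 libraries that held any, and replicates 1 and 2 held 4 and 11 such nuclei in control, 2 and 7 in BCAS, 8 and 4 in TBI, and 6 and 0 in BCAS+TBI. In the astrocyte comparators 6 of 2786 nuclei held a UMI of Sspo.

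Other genes, picked after their values were seen, marked the Sspo nuclei. Zfp862-ps, at 3642 CPM there and 25.05 in the remaining nuclei, begins 3086 bases downstream of Sspo on the same strand (chromosome 6, 48504337 to 48534832), so reads that run past the end of Sspo cannot be told apart from its own. Npsr1, the neuropeptide S receptor, was 1856 CPM in Sspo nuclei, 8.35 in the remaining nuclei and at 0 in choroid-marker nuclei. Cdh20, a cadherin, was 2697 against 100.2 CPM and was found in 97.6% of Sspo nuclei. Bmpr1b, a BMP receptor, was 2536 against 117 CPM. The secreted protein gene Spp2 and the transcription factor gene Ferd3l were 588 and 265 CPM in Sspo nuclei and had no UMI in the remaining ones. Kcnip4, a potassium channel partner protein, reached 12010 CPM in Sspo nuclei against 2446 CPM in the remaining nuclei, 215 in choroid-marker nuclei and 7177 in all other kept nuclei, so it was not particular to them. Pax3, a transcription factor of the dorsal midline, was 622 CPM in Sspo nuclei, 142 in the remaining nuclei and 0 in choroid-marker nuclei.

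Otx2, a homeobox factor and choroid plexus marker, was shared by choroid-marker and Sspo nuclei, at 584 and 265 CPM, and stood at 41.7 CPM in the remaining nuclei. Otx2os1 was 3356 CPM in choroid-marker nuclei and 847 in the rest. It lies on the plus strand of chromosome 14 (48668708 to 48870683) and overlaps Otx2 on the minus strand (48657677 to 48673819) by 5112 bases, and whether the counting used strand is not given in the sources used here.

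The remaining nuclei held most of the astrocyte transcripts. The 7 astrocyte markers summed to 4425 CPM there, 795 in Sspo nuclei, 401 in choroid-marker nuclei and 17718 in the astrocyte comparators. Slc1a2, the main glutamate transporter of astrocytes, was 1753 CPM in the remaining nuclei and 6794 in the comparators, and 15 cilium-gene nuclei met the astrocyte criterion as well. Slc1a3 was 1169 CPM and Gpc5 985 CPM in the remaining nuclei, against 2146 and 6596 in the comparators, and the UMIs of Gpc5 lay in 11.5% of the remaining nuclei. Nnat, the neuronatin gene and an ependymal gene, was 1453 CPM in the remaining nuclei, 69.2 in Sspo nuclei and 42.0 in choroid-marker nuclei. Adamts20, a metalloprotease gene picked after its values were seen, was 893, 484 and 0 CPM in the same order. The part of astrocyte RNA, from other droplets or from nuclei stuck together, was not tested, and no doublet caller was run.

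Markers of further cell types were partly fixed by the rule. The 6 excitatory neuron markers, 3 of which the rule limits, summed to 320 CPM in nuclei outside the choroid-marker class, against 4455 in all other kept nuclei. Oligodendrocyte, microglia and endothelial markers, of which the rule sets Mog, Cx3cr1 and Flt1 to 0, summed to 489, 62.9 and 38.7 CPM there, against 1052, 151 and 153. Fibroblast markers summed to 29.1 against 25.6 CPM and mural markers to 53.3 against 80.5 CPM, with Lum, Kcnj8 and Abcc9 at 0. Of 6 tanycyte markers, Col23a1 alone was detected in at least 5% of the cilium-gene nuclei, at 376 CPM in the remaining nuclei, 242 in Sspo nuclei and 9.34 in choroid-marker nuclei.

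**Figure D3:**
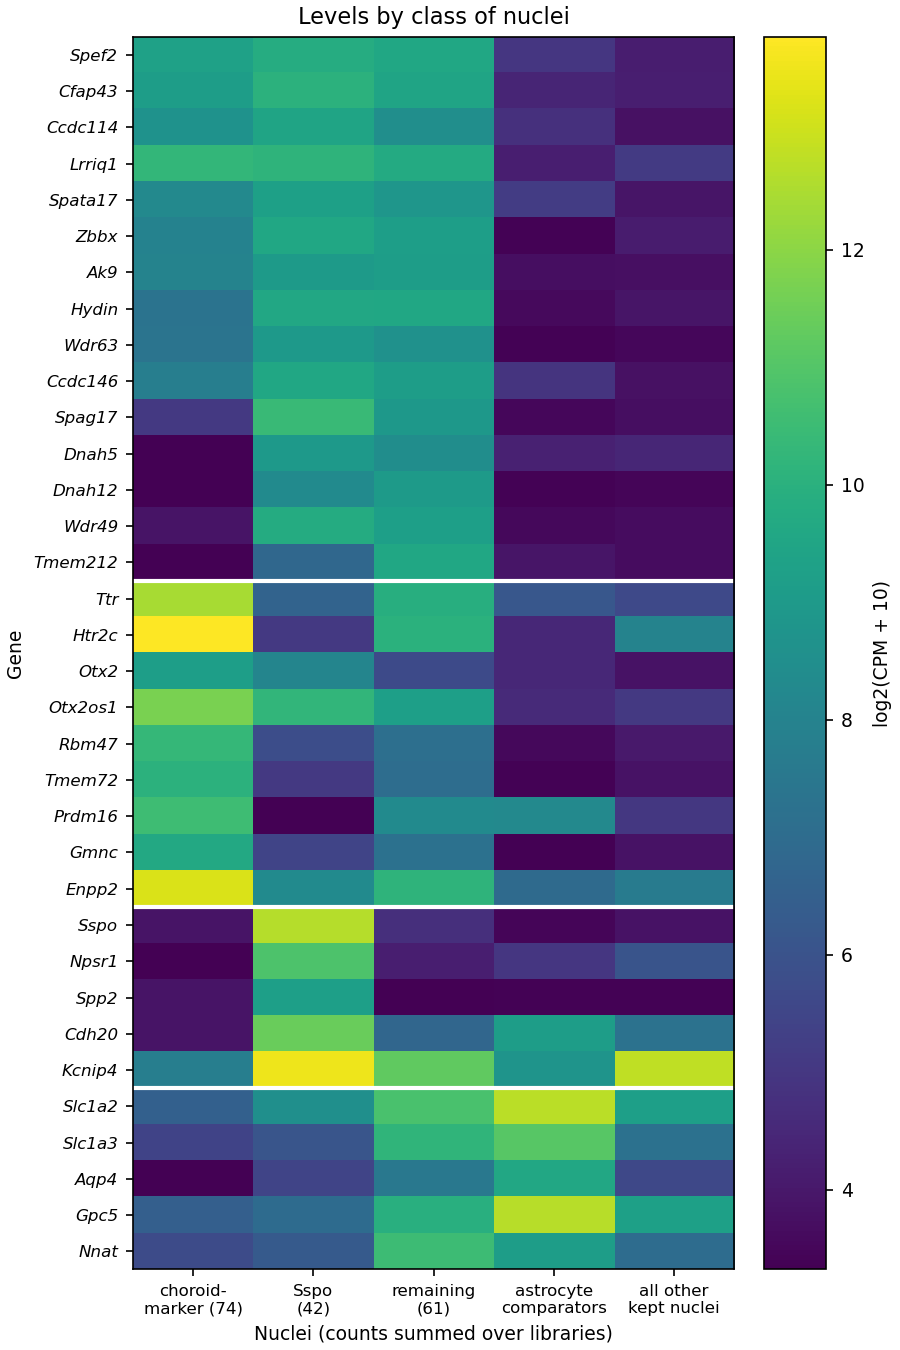
Rows are genes grouped as motile cilium, choroid side, Sspo nuclei and astrocyte, columns are the 3 classes, the astrocyte comparators and all other kept nuclei, and colour is log2 of CPM plus 10 from summed counts. The upper cilium genes are bright in all 3 classes, while Dnah5, Dnah12, Wdr49 and Tmem212 are dark in choroid-marker nuclei.

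The levels of axoneme genes were not equal between the classes. The rule asked for 5 cilium UMIs at any depth. Choroid-marker nuclei had a median of 2932 UMIs and 10 cilium UMIs, against 1858 and 9 in the other cilium-gene nuclei. The 10 rule genes themselves had a median log2 ratio of -0.86 for choroid-marker over the other nuclei. The part of this choice in the ratios between classes below was not tested. Lists of motile cilium genes held 100 genes outside the rule, of which 89 were detected in at least 5% of cilium-gene nuclei, a filter that favours genes high in them. Among these 89, 84 had a log2 ratio over 1 (CPM plus 10) against the other kept nuclei, beside 22.4% of 7894 genes, and the median was 3.22 beside 0.39. None was under -1, beside 6.79% of all genes. Against the astrocyte comparators, the nuclei outside the choroid-marker class had 86 of the 89 over 1, beside 17.1% of all genes, and 0 under -1, beside 6.69%. The rule was built on genes of this kind, so nothing further is read from these counts. Between the classes, 48 of the 89 had a log2 ratio of choroid-marker to other cilium-gene nuclei under -1, beside 16.8% of all genes, and the median was -1.10 beside 0.06. A single gene, Drc7, was over 1 in that comparison, beside 14.8% of all genes. Drc7, a nexin link subunit, was 481 CPM in choroid-marker nuclei, 69.2 in Sspo nuclei and 91.8 in the remaining nuclei.

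Among the motile cilium lists, each taken without its rule genes, the inner dynein arms had the lowest median. Their 10 genes had a median log2 ratio of -2.03 for choroid-marker over the other nuclei, and 8 were under -1. Dnah10 and the rule gene Dnah12 were at 0 CPM in choroid-marker nuclei, and Dnah7a was 51.4 CPM there against 692 in Sspo and 468 in remaining nuclei. Dnah7b and Wdr78 did not share this pattern. Dnah7b was 425, 450 and 409 CPM in choroid-marker, Sspo and remaining nuclei, and Wdr78 was 649, 576 and 618 CPM. Dnah7a, Dnah7b and Dnah7c are close copies, so the split of their reads is uncertain.

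The 9 genes of the outer arm list had a median of -0.62, with Dnah5 as its extreme. Dnah5 and Dnah9 are outer arm heavy chains. Dnah5 was at 0 UMIs in choroid-marker nuclei, 484 CPM in Sspo nuclei and 342 in the remaining nuclei, while Dnah9 was 453, 484 and 777 CPM and Dnah11 was 415, 634 and 660 CPM. The docking complex genes Ccdc114 and Ttc25 were found in all 3 classes, at 401, 680 and 351 CPM for Ccdc114. For Dnah5 in choroid-marker nuclei, the count of 0 allows up to 4.05% of nuclei with a UMI, for counting error alone.

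The 10 detected central pair genes had a median of -1.60, and 5 were under -1. Spef2 was 626, 899 and 751 CPM in choroid-marker, Sspo and remaining nuclei, and Cfap69 was 490, 703 and 526. Spag17, whose protein binds Spag16 and the Spag6 protein, was 23.3, 1360 and 468 CPM. Hydin, a giant protein of the central pair, was 149, 772 and 760 CPM. Cfap46 was 4.67, 473 and 451 CPM. Hydin per library was 409 and 477 CPM in control, 317 and 414 in BCAS, 373 and 724 in TBI, and 468 and 147 in BCAS+TBI, with all groups overlapping.

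Radial spoke, nexin link and doublet genes had medians of -1.37, -1.03 and -0.61 for choroid-marker over the other nuclei, with 7 of 11, 6 of 11 and 5 of 13 detected genes under -1. Examples ranged from lower to nearly absent, and Cfap61, a spoke base protein, was 280, 611 and 609.5 CPM. Enkur, a protein inside the doublet lumen, was 32.7, 565 and 359 CPM. Among other motile cilium genes, Wdr49 was 4.67, 876 and 593 CPM, and Lrriq1 was 1218, 1107 and 843. Intraflagellar transport genes, which primary cilia need as well, had a median of -0.17 between these classes and 1.02 over the other kept nuclei, and the BBSome and transition zone list had -0.46 and 0.91. Sspo and remaining nuclei were close for the motile lists: of the 89 genes, 6 had a log2 ratio over 1 and 5 under -1, beside 12.4% and 20.4% of all genes.

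Lists on the surface and state of these cells were less complete. Of 14 planar polarity genes, which orient ciliary beating, 11 were detected, with a median log2 ratio of 0.17 over other kept nuclei. Of 19 genes of the ependymal surface, adhesion and secretion, 14 were detected with a median of 1.17, and 9 of these were under -1 for choroid-marker over the other nuclei. Vim (vimentin), an intermediate filament gene of ependymal cells, was 4.67 CPM in choroid-marker, 80.7 in Sspo and 75.1 in remaining nuclei, and Prom1 (prominin 1) was 4.67, 265 and 8.35 CPM. Of 15 reactive glia genes 5 were detected, of 12 immediate early genes 1, of 10 hypoxia genes 5, of 12 interferon genes 2 and of 9 iron genes 5, so these responses could hardly be read at this depth.

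Of 17 genes of multiciliation, 8 were detected. For choroid-marker over the other nuclei 1 was over 1 and 1 under -1, beside 14.8% and 16.8% of all genes, and the median was 0.31, so the list as a whole did not stand out. Gmnc (geminin coiled-coil protein, which starts the programme) was 803 CPM in choroid-marker nuclei, 34.6 in Sspo nuclei and 142 in the remaining nuclei. Trp73, a p53 family factor, was 126, 57.6 and 75.1 CPM. Rfx3, an RFX factor that binds X-box sites of cilium genes, was 1400, 1118 and 1244 CPM, against 473 in the astrocyte comparators. Rfx2 was 112, 242 and 209 CPM. Rfx4 was at 0 UMIs in choroid-marker nuclei, 357 CPM in Sspo nuclei, 159 in the remaining nuclei and 328 in the astrocyte comparators. Mcidas, Myb, Ccno, Deup1 and Foxn4, genes of the stage when centrioles multiply, were each detected in fewer than 5% of the nuclei, and Mcidas, Ccno and Foxn4 had 0 UMIs.

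Promoters of the cilium genes are shown because the nuclei were chosen by cilium genes, whose promoters are known for X-box sites, and Rfx transcripts were found in them. RefSeq promoter windows around the start site (GRCm38.p6) were matched for 92 of the 110 genes of the motile lists and the rule, with 102 promoters. The short RFX site GTTGCC, on either strand, was in 47 of the 102 (46.1%) and in 12.5% of all 32851 promoters. The full X-box (GTTNCC, then 2 bases of any kind, then GGNAAC), which reads the same on both strands and can contain the short site, was in 4 (3.92%) and in 0.451% of all. The forkhead core TGTTTAC, a site type of FOXJ1 and its relatives, was in 5 (4.90%) and in 3.65% of all. The short site was also in 9 of 20 promoters of intraflagellar transport genes. A match is a description of the letters and not evidence of binding.

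The 4 promoters with a full X-box are given below with the box in capitals, in the direction of the gene. They are Iqca (chr1:90153387-90153686, minus strand), Ccdc180 (chr4:45890053-45890352, plus), Ak9 (chr10:41303684-41303983, plus) and Ccdc151 (chr9:22002585-22002884, minus).
Iqca: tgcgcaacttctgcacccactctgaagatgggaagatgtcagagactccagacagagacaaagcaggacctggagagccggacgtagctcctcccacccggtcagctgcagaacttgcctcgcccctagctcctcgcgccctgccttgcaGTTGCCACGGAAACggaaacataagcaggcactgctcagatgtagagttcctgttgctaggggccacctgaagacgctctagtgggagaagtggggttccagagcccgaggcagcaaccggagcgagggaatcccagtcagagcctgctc
Ccdc180: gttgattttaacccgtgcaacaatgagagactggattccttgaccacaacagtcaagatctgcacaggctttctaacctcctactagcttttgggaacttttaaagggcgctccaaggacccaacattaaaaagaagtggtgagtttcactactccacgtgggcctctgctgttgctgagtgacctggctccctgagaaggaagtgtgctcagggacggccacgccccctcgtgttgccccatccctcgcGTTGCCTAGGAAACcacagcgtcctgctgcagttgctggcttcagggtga
Ak9: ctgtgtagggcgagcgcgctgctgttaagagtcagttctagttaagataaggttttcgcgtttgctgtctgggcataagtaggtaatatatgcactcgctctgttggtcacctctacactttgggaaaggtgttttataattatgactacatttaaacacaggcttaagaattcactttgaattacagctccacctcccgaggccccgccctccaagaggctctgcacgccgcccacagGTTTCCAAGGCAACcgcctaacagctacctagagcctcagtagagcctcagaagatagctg
Ccdc151: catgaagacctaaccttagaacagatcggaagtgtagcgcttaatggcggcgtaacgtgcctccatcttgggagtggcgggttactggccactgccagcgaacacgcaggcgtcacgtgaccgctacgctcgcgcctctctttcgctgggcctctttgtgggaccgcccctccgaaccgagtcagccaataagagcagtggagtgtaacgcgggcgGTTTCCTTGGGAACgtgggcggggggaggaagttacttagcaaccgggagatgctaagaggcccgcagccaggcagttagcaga
The box alone did not sort the genes by class. Iqca, a nexin link gene, was 4.67, 346 and 217 CPM in choroid-marker, Sspo and remaining nuclei, and Ccdc180 was 0, 173 and 225 CPM. Ak9, an adenylate kinase gene, was 252, 519 and 559 CPM, and Ccdc151, a docking complex gene, was 56.0, 46.1 and 33.4 CPM.

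The question of whether surgery changed the number of these nuclei was put to their share of kept nuclei. The shares were 0.210% and 0.523% in control, 0.291% and 0.497% in BCAS, 0.410% and 0.368% in TBI, and 0.332% and 0.256% in BCAS+TBI. The arms overlapped for both surgeries. With TBI the share was 0.341% ± 0.0653 (SD, n = 4) and without it 0.380% ± 0.154 (n = 4), an exact two-sided permutation p of 0.629. With BCAS it was 0.344% ± 0.107 and without it 0.378% ± 0.129 (n = 4 each), an exact permutation p of 0.714, and both p-values are 0.714 after Benjamini-Hochberg adjustment. The smallest p this design allows is 0.0286. The direction of either difference turned without control 2, to 0.00859 percentage points for TBI and 0.0149 for BCAS, and that for TBI also turned without BCAS 2, to 5.3e-05 percentage points.

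The share of choroid-marker nuclei differed between the library sets at full depth. Choroid-marker nuclei were 50% to 71.4% of cilium-gene nuclei in the set of lower totals and 25.8% to 45% in the set of higher totals. After thinning, nuclei were chosen again with a minimum of 3 cilium UMIs. The ranges were then 40% to 81.2% and 18.2% to 56.5%, so the sets overlapped. The part of depth in the class mix was not tested. By group, choroid-marker nuclei were 32.6% of the control, 42% of the BCAS, 40% of the TBI and 55.9% of the BCAS+TBI nuclei, and the Sspo share was 34.9%, 18%, 24% and 17.6%. The numbers per library are small, and the part of the class mix in the gene comparisons below was not tested beyond the fits that leave a class out. In summed nuclei, fewer cells of a type and less RNA per cell cannot be told apart unless the class is counted, as it was for Sspo.

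Gene levels were compared with edgeR's quasi-likelihood test on counts summed over the cilium-gene nuclei of each library, in which 1466 genes passed the count filter. No gene passed an adjusted p of 0.05 for TBI averaged over BCAS, for BCAS averaged over TBI, for BCAS+TBI against TBI or for the interaction (0% of genes in each). The unadjusted p was under 0.05 for 40 genes (2.73%), 44 (3%), 29 (1.98%) and 22 (1.5%). DESeq2 also called 0 genes in each, with 7, 4, 0 and 4 genes at an unadjusted p under 0.05. Counts were also simulated for TBI averaged over BCAS, with 200 of 1466 genes changed. The edgeR test recovered 15.5% of 2-fold and 97% of 4-fold changes, so most 2-fold changes were missed in that simulation. It also called 0 and 14 unchanged genes in these runs. Every gene was drawn with the same spread (dispersion 0.105), without classes of nuclei or library sets. The recovery rates therefore need not hold for the real counts, and the lack of calls sets no limit on the size of real changes.

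The genes with the smallest p for TBI were Pla2g7, Ablim1 and Flrt2, and none passed the threshold. Pla2g7, which encodes an enzyme that breaks down platelet-activating factor, was 227 and 400 CPM in control, 127 and 163 in BCAS, 58.9 and 15.1 in TBI, and 74.9 and 0 in BCAS+TBI. The 4 libraries with TBI surgery lay below the 4 without it, as was the case in either direction for 1.98% of the tested genes. Its log2 fold change was -2.39 ± 0.66 (SE; edgeR adjusted p = 0.999). Without BCAS+TBI 1 it became -4.61, a fit in which the lone BCAS+TBI library had 0 UMIs, so that size is no bound. Its 63 UMIs lay in 34 nuclei, and 1 of them was from a choroid-marker nucleus. Pla2g7 was 824 CPM in the astrocyte comparators, against 300 in the cilium-gene nuclei outside the choroid-marker class. Without the nuclei that met the astrocyte criterion, its log2 fold change was -2.63. The part of astrocyte RNA in its values was not tested beyond that fit. Flrt2, a membrane protein of cell adhesion, was 45.4 and 206 CPM in control, 222 and 174 in BCAS, 451 and 452 in TBI, and 412 and 294 in BCAS+TBI. The arms did not overlap, and its log2 fold change was 1.23 ± 0.38 (edgeR adjusted p = 0.999), or 2.04 without control 2. Ablim1, an actin-binding protein, was 90.8 and 103 CPM in control and 412 to 510 CPM in the other 6 libraries, with a log2 fold change of 1.16 ± 0.34 (edgeR adjusted p = 0.999). Its arms overlapped, at 422 to 510 CPM with TBI and 90.8 to 436 without. The share of tested genes with both control libraries apart from the rest was not counted. Flrt2 and Ablim1 were higher in choroid-marker nuclei than in the rest, at 443 against 136 and 490 against 232 CPM, and the part of the class mix in their values was not tested.

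For BCAS the genes with the smallest p were Nrg1, Spast and Cfap70, and none passed. Spast, the microtubule-severing protein spastin, was 136 and 116 CPM in control, 158 and 251 in BCAS, 137 and 106 in TBI, and 337 and 294 in BCAS+TBI. Its arms did not overlap, as for 2.59% of tested genes, and its log2 fold change was 1.10 ± 0.35 (edgeR adjusted p = 0.989). Cfap70, a central pair gene, was 318 and 310 CPM in control, 63.4 and 174 in BCAS, 196 and 301 in TBI, and 150 and 73.6 in BCAS+TBI. The arms did not overlap, with a log2 fold change of -1.12 ± 0.38 (edgeR adjusted p = 0.989). Nrg1, neuregulin 1, was 45.4 and 64.5 CPM in control, 253 and 512 in BCAS, 39.3 and 181 in TBI, and 524 and 0 in BCAS+TBI. Of its 103 UMIs, 31 came from a single nucleus of BCAS 2. Its log2 fold change was 2.05 ± 0.63 (edgeR adjusted p = 0.989). Without BCAS+TBI 1 it became -1.47, a fit in which the lone BCAS+TBI library had 0 UMIs of Nrg1, so neither size nor sign is read.

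With the library set as a block, 3 genes (0.205%) passed for BCAS averaged over TBI. They were Nrg1 (log2 fold change 2.11 ± 0.41, adjusted p = 0.00174), Kcnip4 (-1.27 ± 0.26, adjusted p = 0.00231) and Sspo (-1.25 ± 0.31, adjusted p = 0.0471), all by edgeR. Without the block Kcnip4 had a log2 fold change of -1.01 and Sspo of -1.12 (edgeR adjusted p = 0.989 for both). The unblocked value of Kcnip4 became -0.39 without control 2, -1.64 without BCAS 2, -2.48 without BCAS+TBI 1 and -0.61 without BCAS+TBI 2, and those of Sspo and Cdh20 became -0.69 and -0.75 without BCAS+TBI 2. Kcnip4 was 1862 and 7044 CPM in control, 824 and 3247 in BCAS, 2355 and 3000 in TBI, and 2734 and 184 in BCAS+TBI. Sspo and Kcnip4 were both high in Sspo nuclei, which numbered 15 of 43 in control, 9 of 50 in BCAS, 12 of 50 in TBI and 6 of 34 BCAS+TBI nuclei, and the part of this mix in the calls was not tested. Without BCAS+TBI 1, Sspo and Cdh20 passed for BCAS (edgeR adjusted p = 0.0243 for both), and in that fit BCAS+TBI was BCAS+TBI 2 alone, which had 0 UMIs of either, so the fitted sizes are not given.

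**Figure D4:**
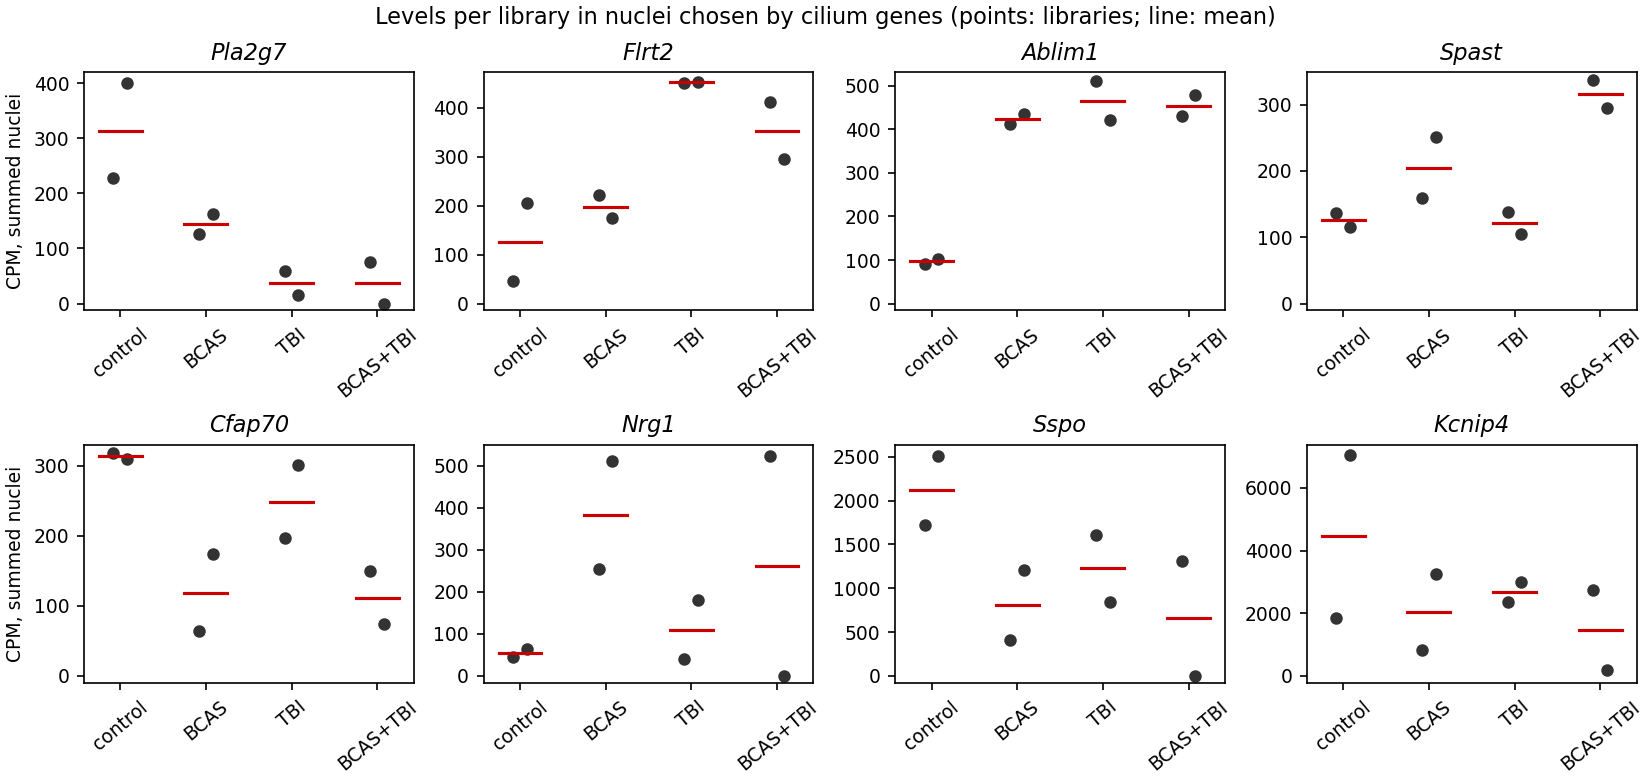
Each panel gives CPM of a gene in the summed cilium-gene nuclei, with a point per library and a line at the mean of the 2 libraries of each group. Pla2g7 and Flrt2 separate the libraries with TBI from those without, Spast and Cfap70 those with BCAS from those without, and Sspo is 0 in BCAS+TBI 2. Such separation was found for 1.98% of tested genes for TBI and 2.59% for BCAS.

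For BCAS+TBI against TBI, the comparison named by the title of the study, the smallest p-values belonged to Fxr1, Spast and Ppp2r2b. Fxr1, an RNA-binding protein, was 300 and 331 CPM in BCAS+TBI and 98.1 and 136 in TBI, with a log2 fold change of 1.39 ± 0.49 (edgeR adjusted p = 1.00). Spast was at 1.40 ± 0.49 in this comparison (edgeR adjusted p = 1.00). Ppp2r2b, a phosphatase subunit, was 562 and 221 CPM in BCAS+TBI and 157 and 121 in TBI, and its log2 fold change of 1.56 ± 0.56 became 0.72 without BCAS+TBI 1. For the interaction they were Col25a1, Lef1 and R3hdm2. Of 57 UMIs of Col25a1, a membrane collagen gene, 37 came from a single nucleus of BCAS 2, and BCAS+TBI had 0 UMIs, so no fold is given. Lef1, a Wnt pathway factor that was 420 CPM in choroid-marker nuclei and 14.5 in the rest, had an interaction of -3.24 ± 1.02 on the log2 scale (edgeR adjusted p = 0.998). R3hdm2 had 2.32 ± 0.75 (edgeR adjusted p = 0.998).

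The motile cilium genes outside the rule leaned to lower values with BCAS. Of 47 that entered the test, 43 had a log2 fold change below 0 for BCAS averaged over TBI, with a median of -0.31, beside 723 of 1466 genes and a median of 0.01. For TBI averaged over BCAS 31 of 47 were below 0, with a median of -0.11 beside -0.03. None passed the threshold in either, and 3 and 0 had an unadjusted edgeR p under 0.05. Of these, the 5 inner dynein arm genes were all below 0 for BCAS, with a median of -0.34, and so were the 9 central pair genes, with a median of -0.51. The count includes nuclei of all classes. Without choroid-marker nuclei 27 of 31 genes were below 0 for BCAS (median -0.27, beside -0.02 for all genes tested in that fit). Without Sspo nuclei it was 26 of 33 (median -0.12 beside 0.03), and in choroid-marker nuclei alone 6 of 12 (median -0.14 beside -0.03). Without control 2 it was 34 of 52 (median -0.12 beside 0.07), and without BCAS+TBI 1 it was 43 of 52 (median -0.53 beside -0.06). The genes are not independent of each other, and the share of choroid-marker nuclei, in which many of them were lower, was higher in BCAS than in control and in BCAS+TBI than in TBI, as given above. The part of that mix was not tested beyond these fits.

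Markers of other types are set beside these values. All 4 astrocyte markers in the test were above 0 for BCAS+TBI against TBI, with a median of 1.41 beside 0.002 for all genes. None passed the threshold, and 1 had an unadjusted edgeR p under 0.05, beside 1.98% of all genes. Each TBI and BCAS+TBI library held 1 cilium-gene nucleus that met the astrocyte criterion, and the part of single nuclei in these values was not tested. The 7 astrocyte markers together were 999.05 and 2490 CPM in control, 634 and 2376 in BCAS, 648 and 724 in TBI, and 2284 and 1067 in BCAS+TBI. The 7 choroid plexus markers had a median of 0.16 for BCAS and 0.36 for TBI, and they summed to 7354 to 21456 CPM over the libraries.

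**Figure D5:**
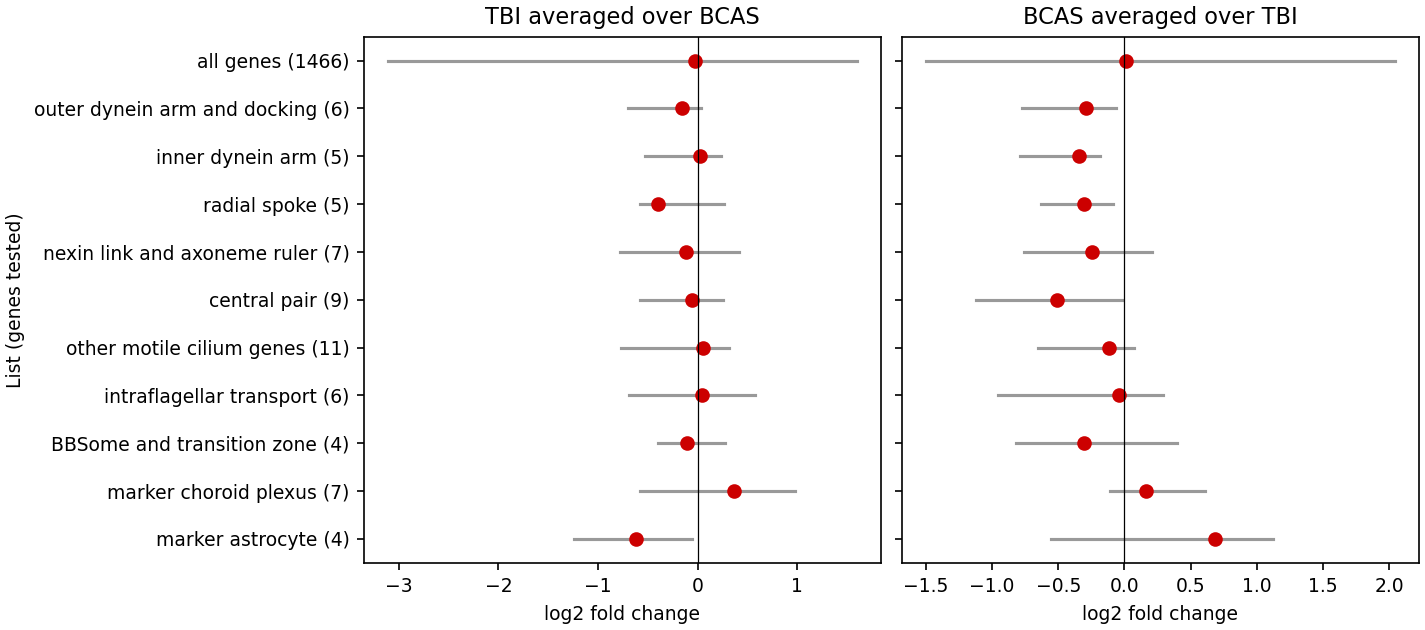
Red points are the median log2 fold change of the tested genes of each list and grey lines run from the lowest to the highest gene, for TBI (left) and BCAS (right). The motile cilium lists leave out rule genes. For BCAS the central pair median of -0.51 is the lowest of the lists shown, and the all-gene medians lie at -0.03 and 0.01.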

How the data were processed

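Nuclei from 8 libraries were profiled with the 10x 3' kit. The deposited matrices hold raw UMI counts per gene and barcode, and per the file headers Cell Ranger 7.0.0 wrote them. GRCm38 (mm10) and Seurat are named in the submitters' processing notes. Which annotation release was used, and how barcodes were called as nuclei, is not given in the sources used here. Gene positions are from GENCODE on GRCm38.

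Barcodes were filtered and cilium-gene nuclei chosen as the report states. The members, the gene lists and the tests were chosen with earlier results of these data known, and the Sspo class was set after its values were seen. Levels are CPM of counts summed over nuclei, with exact Poisson intervals. Ratios between classes add 10 CPM to both sides, and the motile cilium lists are described without their rule genes. Astrocyte comparators had at least 3 of 6 astrocyte genes with at least 5 UMIs and at most 1 cilium UMI. No doublet caller was run.

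Counts summed per library were tested with edgeR 4.0.16 (R 4.3.3) with TMM, a minimum count of 10 and Benjamini-Hochberg adjustment over all 1466 tested genes, with the 4 groups in the model. DESeq2 1.42.0 was an alternative. Shares were compared by exact permutation of libraries over 70 assignments. The edgeR step was tested on simulated data. Genes named were the rule genes, the 25 genes with the highest ratio over other kept nuclei, genes of the lists, and per contrast the 3 genes with the smallest p; genes named beyond this are said to be picked after their values were seen. Alternatives covered filters, normalization, blocks, thinning to 1000 UMIs, classes of nuclei and leaving out each library. Depths per library are in the report, and intervals cover counting error only.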

Additional observations from a re-analysis of the deposited data

How the results depend on the processing

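The share of cilium-gene nuclei did not pass the threshold in any alternative run, and its small differences (-0.0389 percentage points for TBI, -0.0335 for BCAS) changed sign in some. With library set or replicate number as a block, the smallest p the exact permutation allows is 0.0556, so those runs could not pass. Runs within a library set had fewer libraries still and could not pass either. No stability is read from these runs. For TBI the difference was 0.0293 with nuclei within the neuronal limit as denominator and 0.0821 within the library set of lower totals. For BCAS it was 0.00624 with at least 10 cilium UMIs and 0.0211 without Sspo nuclei, an alternative chosen after seeing the data. Leaving out each library gave -0.0957 to 0.00859 for TBI and -0.0894 to 0.0149 for BCAS. The cause of these changes was not tested.

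Counts of genes past the threshold were 0 in every fit of each contrast except 2 fits for BCAS averaged over TBI: 3 genes with the library set as a block and 2 without BCAS+TBI replicate 1, with 0 in the other fits that leave out a library. Fits without choroid-marker nuclei, in choroid-marker nuclei alone and without Sspo nuclei were chosen after seeing the data and tested 427, 503 and 990 genes. Of the named genes, Nrg1 turned from 2.05 to -1.47 without BCAS+TBI replicate 1, the lowest of its values with a library left out, which reached 2.78. In the fit that turned, the lone BCAS+TBI library had 0 UMIs of Nrg1, so its sign is not read. No other named gene changed sign in the fits that tested it.

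With the replicate number of the labels as a block, 0 genes passed in each contrast. The exact permutation p of the share was 0.556 for TBI and 0.722 for BCAS, where the smallest p this block allows is 0.0556. The replicate numbers did not pair the libraries across all groups: the correlation of same-numbered deviations was 0.295 to 0.358 in the 3 pairs among control, BCAS and TBI, and -0.407 to -0.267 in the 3 pairs with BCAS+TBI.

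A library held 12 to 34 cilium-gene nuclei and 22021 to 91767 summed UMIs, and the part of this depth in the lack of calls was not tested on the real counts.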
